A study of Mus musculus with 19 samples.

Results

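Id2, Id3, Tcf3 and Tcf12 encode the inhibitory and the activating partners of the E protein network, and were taken by name from the gene expression rows of a CITE-seq survey of the mouse thymus. They are 4 of 28692 genes in the reference, and all 4 were among the 19885 genes with at least 1 UMI (a uniquely tagged RNA molecule) in the cells kept. E proteins are helix-loop-helix transcription factors that bind E-box sites (CANNTG) as dimers. Tcf12 encodes HEB, and Tcf3 encodes the other E protein abundant in thymocytes, a gene unrelated to the TCF family member Tcf7l1. Id2 and Id3 lack the DNA-binding region, pair with E proteins and keep them off DNA. In CD4+CD8+ double positive (DP) thymocytes, E proteins keep recombination genes active, and T cell receptor (TCR) signals induce Id3 by way of EGR factors. Id2 and Id3 then lower E protein activity as selected cells mature, and both genes are known for their part in the CD4, CD8 and innate-like T cell lineages.

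The series holds 19 lanes of thymocytes from 17 female mice aged 4 to 8 weeks, in which RNA and 111 surface antibodies were counted in the same cells. Wild-type C57BL/6 mice (WT, 5 mice) make both lineages. CD4-fated mice were AND TCR transgenic mice on a Rag1-/- background, OT-II TCR transgenic mice and MHCI-/- mice, which lack B2m. CD8-fated mice were F5 TCR transgenic mice on a Rag1-/- background, OT-I TCR transgenic mice and MHCII-/- mice, which lack H2-Ab1. Each of these 6 genotypes had 2 mice. AND and F5 thymocytes carry the transgenic TCR alone and a disrupted Rag1, OT-I and OT-II thymocytes can also rearrange their own TCR genes, and the F5 chains are driven by CD2 sequences. WT replicates 1 to 3 and all MHC-deficient mice were sorted for CD5+TCRb+ cells, whereas WT replicates 4 and 5 and the TCR transgenic mice were not. Both unsorted WT mice and all 4 OT mice formed the third of 3 experiments, so experiment, sort and these mice cannot be told apart.

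Stages were set from antibody counts, in cells outside the RNA clusters named as other cell types, such as cycling-like, NKT-like, Treg-like or negative selection-like cells. DP1 cells were CD4+CD8hi and low for CD69 and CD127, DP2 cells had gained CD69, and CD4+CD8lo cells were the CD69+ intermediate that both lineages pass through. On the CD8 path, DP3 cells were CD4+CD8hi, CD69+, CD127+ and high for TCRb. Semimature (SM) single positive (SP) cells were CD69+, and mature SP cells were CD69- and CD127+. UMIs were summed for each mouse and gate, and levels are given as CPM, the UMIs of a gene after scaling that sum to 1000000. The 114 sums held 12 to 1688 cells (median 238), and the median count behind a value was 56.5 UMIs for Id2, 491 for Id3, 97.5 for Tcf3 and 132 for Tcf12. In a summed gate, fewer expressing cells and less RNA per cell cannot be told apart. The mouse was the replicate. For steps between gates, p-values measure how far the change within a mouse varies between mice. For comparisons of CD4-fated with CD8-fated mice, they measure the spread left between mice after the kind of genotype is allowed for.

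Several libraries stood apart. Lanes held 9893333 to 43303999 RNA UMIs, and 695 of 71355 cell barcode sequences occurred in more than 1 lane. B2m, deleted in MHCI-/- mice, stood at 46.3 and 48.8 CPM there and at 404 to 1253 CPM in the other mice. H2-Ab1, lacking in MHCII-/- mice by their label, read 8.99 and 8.80 CPM there and 2.90 to 269 CPM in the other mice. WT replicates 2 and 3, MHCI-/- replicate 2 and F5 replicate 1 were lower, so H2-Ab1 gives no check of that label. In the DP2 gate, Rag1, which positively selected cells switch off, read 1598 and 2700 CPM in the unsorted WT mice and 39.7 to 69.7 CPM in the sorted WT mice. In DP3 it read 711 and 1391 CPM against 2.56 to 12.5 CPM. Leaving out the third experiment was an alternative chosen after the data had been seen, and its values are given where it ended or added a call of the 4 genes or moved a called change by about 1.5 times or more. F5 mice had 3 and 0 cells in the CD4+CD8lo gate and enter no comparison there. Unnamed RNA clusters held 2249 of 2437 cells of F5 replicate 1 and 3505 of 4195 of F5 replicate 2. Leaving them out, another alternative chosen after the data had been seen, left the F5 mice with 17 and 22 DP1 cells, 1 and 10 DP2 cells and under 10 in every later gate, and left 14.5% and 15.2% of the CD4+CD8lo cells of MHCII-/- mice and 18.3% of those of OT-I replicate 1. Of DP3 cells, that alternative left 9.48% and 11.9% in MHCII-/- mice and 23.4% to 30.4% in sorted WT mice. In OT-II replicate 1 it left 11.2% of DP1, 8.74% of DP2 and 7.74% of DP3 cells. AND replicate 2 had 32 DP1 and 18 DP2 cells, and OT-I replicate 2 had 39 DP1 cells.

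The 250 bases before the annotated start are shown for both Id genes, whose RNA rose together at the earliest step, and for Tcf12, whose RNA fell at that step. They come from RefSeq for GRCm38.p6 and are written 5′ to 3′ on the strand of the gene, with matches to CANNTG in capitals.
Id2 (chr12:25096093-25096342, - strand): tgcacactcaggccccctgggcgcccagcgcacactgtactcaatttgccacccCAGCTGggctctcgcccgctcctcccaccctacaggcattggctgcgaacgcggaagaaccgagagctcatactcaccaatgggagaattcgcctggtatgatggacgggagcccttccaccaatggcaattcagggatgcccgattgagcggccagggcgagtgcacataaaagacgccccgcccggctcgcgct
Id3 (chr4:136143572-136143821, + strand): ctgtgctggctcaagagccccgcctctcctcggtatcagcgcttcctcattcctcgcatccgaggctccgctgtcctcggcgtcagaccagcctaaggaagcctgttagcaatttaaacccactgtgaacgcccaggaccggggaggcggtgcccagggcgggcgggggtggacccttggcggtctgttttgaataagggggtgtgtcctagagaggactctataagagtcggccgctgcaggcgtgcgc
Tcf12 (chr9:72111820-72112069, - strand): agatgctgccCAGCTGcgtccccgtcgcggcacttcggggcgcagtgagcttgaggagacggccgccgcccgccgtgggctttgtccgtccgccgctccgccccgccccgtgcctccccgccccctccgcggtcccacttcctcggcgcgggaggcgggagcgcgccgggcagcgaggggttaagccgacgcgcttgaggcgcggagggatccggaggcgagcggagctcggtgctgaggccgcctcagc

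The genes lie at chr12:25093799-25096092 on the - strand (Id2, ENSMUSG00000020644), chr4:136143822-136145392 on the + strand (Id3, ENSMUSG00000007872), chr10:80409541-80433976 on the - strand (Tcf3, ENSMUSG00000020167) and chr9:71844252-72111893 on the - strand (Tcf12, ENSMUSG00000032228). The window of Id2 held CAGCTG, a form of CANNTG, at position -196 from the start. The Tcf12 window precedes the outermost of the 3 starts listed with the promoter sequences, which lies inside the gene span of the annotation, so that 74 bases of the window are within that span. It held CAGCTG at position -240 from that start. No CANNTG match lay in the Id3 window, and neither of the EGR motifs GCGTGGGCG and GCGGGGGCG was found in these windows, or in that of Tcf3, on either strand. Among 27025 promoter windows of this length, 66.0% held CANNTG, 12.8% held CAGCTG, 0.540% held GCGTGGGCG and 2.56% held GCGGGGGCG. CAGCTG matches are counted within CANNTG.

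From DP1 to DP2, the step at which thymocytes gain CD69 after a TCR signal, Id2 and Id3 rose and Tcf12 fell in CD4-fated, CD8-fated and WT mice. In the unsorted WT mice Tcf12 barely moved, at 497 and 404 CPM in DP1 and 481 and 410 CPM in DP2. The WT call of Tcf12 was lost without WT replicate 1, 2 or 3. From DP2 to CD4+CD8lo, Id2 rose further in all 3 sets of mice, while Id3 fell in CD8-fated and WT mice. Past CD4+CD8lo, the changes of Id2 that passed the test along a path were all decreases, although an increase from CD8 SM to CD8 mature was called in the sorted WT mice. Tcf3 passed the test at a single step, in WT mice. Each step was tested within mice with edgeR's quasi-likelihood test and Benjamini-Hochberg adjustment over all genes tested, and a gene was called at an adjusted p under 0.05.

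In CD4-fated mice, 7 of 16 tests of these genes over 4 steps were called. From DP1 to DP2, 3 of the 4 genes were called, against 6.12% of 9288 genes tested. From DP2 to CD4+CD8lo, 2 were called against 16.1%. From CD4+CD8lo to CD4 SM and from CD4 SM to CD4 mature, only Id2 was called, against 8% and 2%. In CD8-fated mice, 7 of 20 tests over 5 steps were called. They were 3 of 4 genes from DP1 to DP2 (13.6% of 9906 genes), 2 from DP2 to CD4+CD8lo (3.61%), Id3 from CD4+CD8lo to DP3 (0.646%) and Id2 from DP3 to CD8 SM (13.8%). From CD8 SM to CD8 mature, edgeR called 0 of 4, with 0 at an unadjusted p under 0.05 and 0 by DESeq2, against 0.697% of all genes.

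WT mice gave 13 calls in 36 tests over 9 steps and contrasts. The CD4 path held 3 calls from DP1 to DP2 (6.26% of 9205 genes), 3 from DP2 to CD4+CD8lo (25.8%), 2 from CD4+CD8lo to CD4 SM (16.5%) and 1 from CD4 SM to CD4 mature (7.41%). The CD8 path held 2 calls from CD4+CD8lo to DP3 (4.73%) and 1 from DP3 to CD8 SM (27%). Of the 4 genes, edgeR called 0 from CD8 SM to CD8 mature (1.74% of all genes) and 0 between CD8 mature and CD4 mature (8.72%), with 0 at an unadjusted p under 0.05 and 0 by DESeq2 in both. Between CD8 SM and CD4 SM, 1 was called (13.6%). The plot of changes between gates sets these values side by side.

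**Figure D1:**
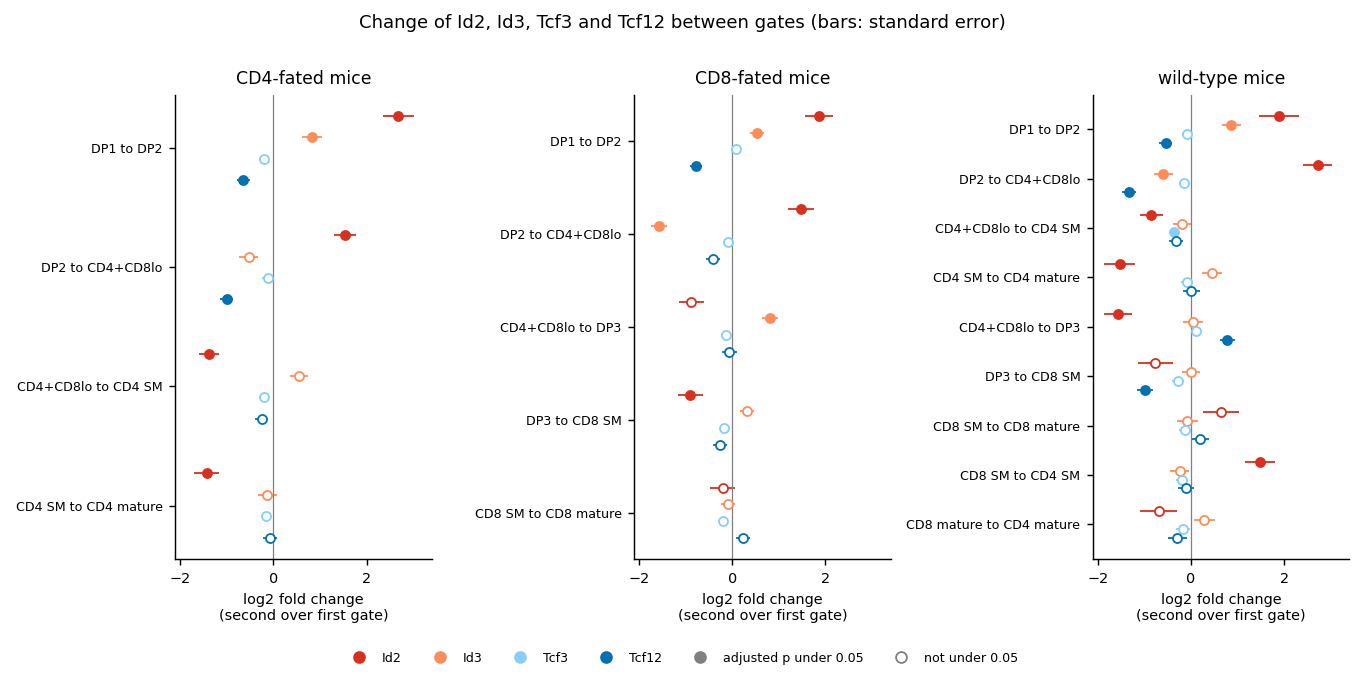
Log2 fold change of Id2, Id3, Tcf3 and Tcf12 between adjacent gates (second over first gate, horizontal axis) in CD4-fated, CD8-fated and wild-type mice, with standard error as bars. Filled points have an adjusted p under 0.05 (edgeR). From DP1 to DP2, Id2 and Id3 lie to the right of 0 and Tcf12 to the left in all 3 panels, and Tcf3 is filled once, at CD4+CD8lo to CD4 SM in wild-type mice.

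Id2 was low in preselection cells and rose at the 2 earliest steps in CD4-fated mice. In DP1 it ranged from 5.66 to 26.9 CPM with a median of 21.6 over 6 mice. In DP2 the median was 99.1 CPM (11.8 to 240), and in CD4+CD8lo it was 305 CPM (79.8 to 517). Id2 was higher in DP2 than in DP1 in 5 of 6 mice, AND replicate 2 with its 18 cells being the exception. In CD4+CD8lo it was higher than in DP2 in 6 of 6 mice, with MHCI-/- mice highest (472 and 517 CPM) and OT-II mice lowest (79.8 and 101 CPM). The increase was 2.68 ± 0.33 (log2 fold change ± SE, adjusted p = 1.02e-05) from DP1 to DP2 and 1.54 ± 0.23 (adjusted p = 1.12e-05) from DP2 to CD4+CD8lo by edgeR's quasi-likelihood test. With antibody thresholds set lane by lane, the increase to CD4+CD8lo was 0.50 and not called (adjusted p = 0.332).

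Beyond CD4+CD8lo, Id2 fell in CD4-fated mice at both steps. CD4 SM cells had a median of 101 CPM (46.6 to 161) and CD4 mature cells a median of 29.7 CPM (22.5 to 61.0). Each of the 6 mice was lower at each of these steps, although the ranges of neighbouring gates overlapped. Id2 fell by 1.39 ± 0.21 to CD4 SM (adjusted p = 4.01e-05) and by 1.43 ± 0.27 to CD4 mature (adjusted p = 0.00235). Lane-by-lane thresholds ended both calls, with adjusted p of 0.0569 and 0.151.

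CD8-fated mice also raised Id2 at both early steps, from 0 to 30.1 CPM (median 16.3) in DP1 to 6.33 to 136 CPM (median 60.5) in DP2. The value of 0 is that of OT-I replicate 2, where 0 of 77562 UMIs allow a level of up to 38.7 CPM (3 counts, counting error only). Id2 was higher in DP2 in the 5 mice with Id2 UMIs in both gates, and rose by 1.87 ± 0.30 (adjusted p = 2.42e-05). In OT-I replicate 2 the DP2 value of 6.33 CPM lies below that limit, so its direction was not detectable at this depth. In the CD4+CD8lo gate, MHCII-/- mice had 292 and 257 CPM and OT-I mice 133 and 117 CPM, each above the DP2 value of the same mouse. The increase was 1.48 ± 0.28 (adjusted p = 0.000745), and without the third experiment, which leaves the MHCII-/- mice, it was 1.00 with an adjusted p of 0.239. Without cells of unnamed clusters it was 2.53 and called.

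In DP3, the gate that follows on the CD8 path, Id2 stood at 182 and 170 CPM in MHCII-/- mice, 85.6 and 44.0 CPM in F5 mice and 71.9 and 37.0 CPM in OT-I mice. All 4 mice with both gates were lower in DP3 than in CD4+CD8lo, and the change of -0.88 ± 0.27 was not called (adjusted p = 0.144). It was called under 5 alternatives, among them the removal of cells from unnamed clusters (-1.21, adjusted p = 1.24e-05). From DP3 to CD8 SM, where the median was 34.6 CPM (17.6 to 102), Id2 was lower in 6 of 6 mice and fell by 0.90 ± 0.27 (adjusted p = 0.0222). This call was ended by 7 of 18 alternatives. The adjusted p was 0.077 without MHCII-/- replicate 1, 0.205 without OT-I replicate 1 and 0.127 by DESeq2. The change was -0.71 (adjusted p = 0.232) without the third experiment and -0.51 (adjusted p = 0.116) without cells of unnamed clusters. Gating cells of every cluster gave an adjusted p of 0.12 and lane-by-lane thresholds 0.099. CD8 mature cells had a median of 20.7 CPM (4.24 to 98.2).

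In WT mice Id2 also rose at both early steps. The 3 sorted WT mice had 18.2, 31.4 and 10.9 CPM in DP1 and 99.3, 108 and 124 CPM in DP2. The unsorted WT mice had 5.62 and 13.3 CPM in DP1 and 12.8 and 16.1 CPM in DP2, so the unsorted mice changed far less at this step. The increase over all 5 mice was 1.89 ± 0.42 (adjusted p = 0.00462), and it lost its call without WT replicate 2 (adjusted p = 0.0672) or WT replicate 3 (adjusted p = 0.0639). In CD4+CD8lo, WT mice 1 to 5 had 431, 389, 264, 357 and 198 CPM. These values did not overlap with DP2, and Id2 rose by 2.72 ± 0.31 (adjusted p = 1.16e-08), or by 1.84 (adjusted p = 6.83e-13) without the third experiment.

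Along the WT CD4 path, Id2 read 196, 180, 131, 207 and 93.3 CPM in CD4 SM and 52.6, 63.6, 54.7, 34.5 and 87.3 CPM in CD4 mature cells. It fell by 0.85 ± 0.25 into CD4 SM (adjusted p = 0.0157) and by 1.53 ± 0.34 into CD4 mature (adjusted p = 0.00234), the CD4 SM and CD4 mature values not overlapping. The decrease into CD4 SM was not called without WT replicate 1 (adjusted p = 0.0785), by DESeq2 (adjusted p = 0.19) or with lane-by-lane thresholds (adjusted p = 0.0594). From CD4+CD8lo to DP3, where WT mice had 200, 127, 165, 76.3 and 59.0 CPM, Id2 fell by 1.57 ± 0.30 (adjusted p = 0.000659).

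The WT CD8 SM gate had lower Id2 than the WT CD4 SM gate in the same mice. CD8 SM cells had 44.5, 55.0, 47.0, 54.1 and 81.5 CPM, all below the lowest CD4 SM value. Id2 was higher in CD4 SM by 1.49 ± 0.32 (adjusted p = 0.000893), in 5 of 5 mice. From DP3 to CD8 SM the change was -0.77 ± 0.37 and not called (adjusted p = 0.126), but it was -1.50 with an adjusted p of 5.16e-06 without the third experiment and was also called without WT replicate 4 (0.0324) or WT replicate 5 (0.0486). In CD8 mature cells Id2 stood at 147, 84.2, 71.1, 89.4 and 44.9 CPM. The change from CD8 SM was 0.65 ± 0.38 (adjusted p = 0.548), but 1.02 and called (adjusted p = 0.0016) without the third experiment. The difference of CD4 mature from CD8 mature cells was -0.70 ± 0.40 (adjusted p = 0.316) with 4 of 5 mice lower in CD4 mature, and the same size with an adjusted p of 0.0127 in the 3 sorted mice.

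NKT-like cells had the highest mean Id2 of the cell classes described further on. Cells of NKT-like clusters were left out of the gates, and the markers of NKT cells that remained were followed through them. The 8 markers together read 4.81 to 116 CPM (median 15.1) in CD4+CD8lo, against 48.6 to 359 CPM in DP1 and 9.93 to 245 CPM in DP2. In the CD8 mature gate they read 108 to 535 CPM and in CD4 mature 0 to 58.2 CPM. Zbtb16, which defines NKT cells, was at 0 in the DP1 and CD8 SM sums, and its value in CD4+CD8lo is not given. The 8 markers together were not at 0 in DP1, so their sum does not follow NKT cells alone. Klrd1, a marker in this list, was also a leading gene of the CD8 SP-like cluster. The low sum in CD4+CD8lo is therefore no count of NKT cells there. The part of NKT cells in the Id2 levels was not tested. The plot of levels by gate shows the Id2 peak in CD4+CD8lo.

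**Figure D2:**
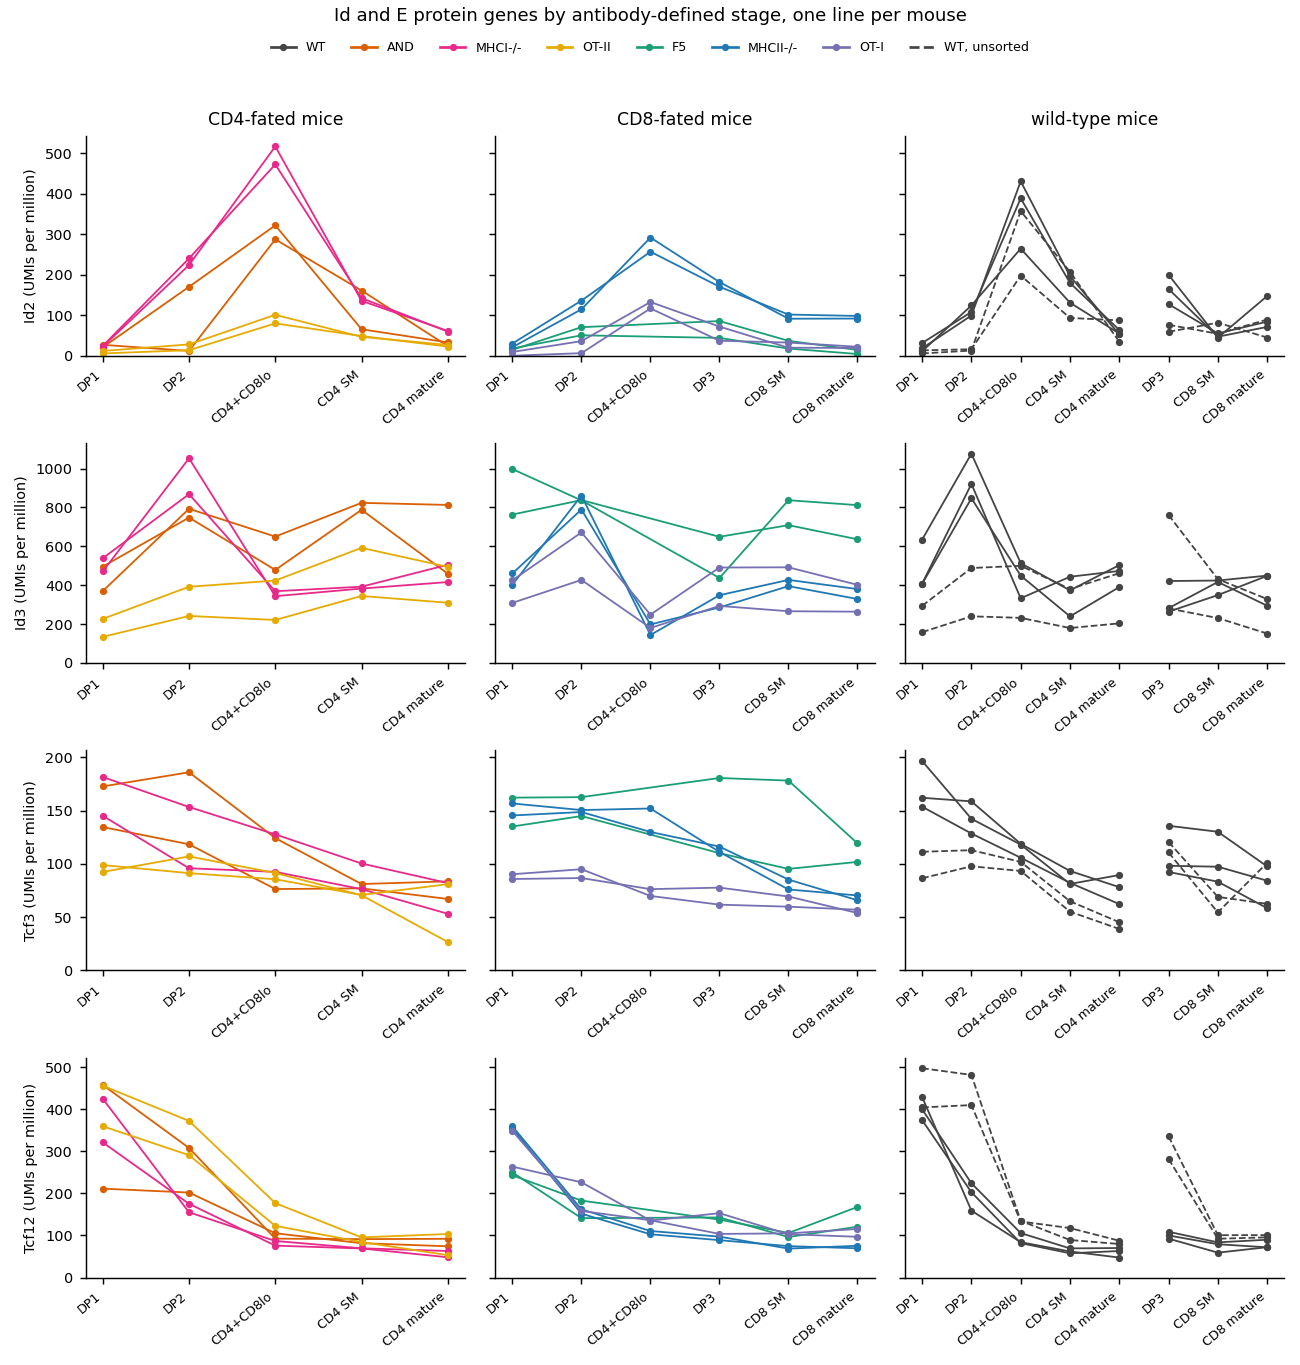
Level of each gene (CPM of the mouse-by-gate sum, vertical axis) across antibody-defined gates, with 1 line per mouse coloured by genotype and dashed lines for unsorted wild-type mice. Id2 peaks in CD4+CD8lo, up to 517 CPM in MHCI-/- mice. Tcf12 falls from up to 497 CPM in DP1 to at most 177 CPM in CD4+CD8lo, and F5 lines skip CD4+CD8lo.

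Id3, which TCR signals induce, was already abundant in DP1 and rose into DP2 in all 3 sets of mice. In CD4-fated mice it went from 134 to 539 CPM (median 420) in DP1 to 242 to 1053 CPM (median 771) in DP2, higher in 6 of 6 mice. The increase was 0.83 ± 0.21 (adjusted p = 0.0132), and it was not called without MHCI-/- replicate 1 (adjusted p = 0.0947) or with lane-by-lane thresholds (0.41, adjusted p = 0.563). In CD8-fated mice the ranges were 309 to 997 CPM (median 443) and 427 to 861 CPM (median 813). Id3 rose by 0.53 ± 0.15 (adjusted p = 0.0125), in 5 of 6 mice, F5 replicate 1 having 997 CPM before and 837 CPM after. Leaving out MHCII-/- replicate 1 (0.112), MHCII-/- replicate 2 (0.109), OT-I replicate 1 (0.0623) or the third experiment (0.0821), or raising the antibody thresholds by 0.25 (0.0578), moved the adjusted p past 0.05, while the increase was 1.04 without cells of unnamed clusters and 0.87 without the AND and F5 mice.

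WT mice 1 to 5 had 407, 635, 408, 294 and 159 CPM of Id3 in DP1 and 847, 1077, 921, 489 and 240 CPM in DP2. All 5 were higher in DP2, and the unsorted mice were the lowest of both gates. Id3 rose by 0.87 ± 0.20 (adjusted p = 0.00642), a call lost without WT replicate 3 (adjusted p = 0.0693).

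Between DP2 and CD4+CD8lo, Id3 separated from Id2. In CD8-fated mice, Id3 read 861 and 790 CPM (MHCII-/-) and 672 and 427 CPM (OT-I) in DP2, and 144, 198, 249 and 180 CPM in CD4+CD8lo in the same order. The gates did not overlap, and Id3 fell by 1.57 ± 0.18 (adjusted p = 2.84e-07). The change was called in all 18 alternatives, at -0.98 with lane-by-lane thresholds, -0.82 without cells of unnamed clusters and -0.76 (adjusted p = 0.0228) when cells of every cluster were gated. In CD4-fated mice, Id3 in CD4+CD8lo had a median of 397 CPM (221 to 650), lower than DP2 in 5 of 6 mice. The change was -0.53 ± 0.21 and not called (adjusted p = 0.0773), but it was called without the third experiment (-0.83, adjusted p = 0.0126), without OT-II replicate 1 (0.0265) and without cells of unnamed clusters (0.0359).

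WT mice had 449, 514, 333, 500 and 232 CPM of Id3 in CD4+CD8lo, and Id3 fell by 0.59 ± 0.20 from DP2 (adjusted p = 0.0258). The 3 sorted mice were each clearly lower than in DP2 and the unsorted mice were close to their DP2 values. Without WT replicate 1, 2 or 3 the adjusted p was 0.0637, 0.111 and 0.182. Without cells of unnamed clusters the change was -0.31 and not called (adjusted p = 0.227), whereas it was -0.97 (adjusted p = 3e-06) without the third experiment.

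From CD4+CD8lo to DP3, Id3 rose in CD8-fated mice. Those with both gates had 349 and 286 CPM (MHCII-/-) and 491 and 294 CPM (OT-I) in DP3, all above the highest CD4+CD8lo value of 249 CPM. Id3 rose by 0.82 ± 0.18 (adjusted p = 0.0124). The call was lost without MHCII-/- replicate 1 (0.131), MHCII-/- replicate 2 (0.0624), OT-I replicate 1 (0.139) or the third experiment (0.102) and with antibody thresholds raised by 0.25 (0.62, adjusted p = 0.0829), and the increase shrank to 0.32 (adjusted p = 0.447) without cells of unnamed clusters and 0.09 (adjusted p = 0.973) when cells of every cluster were gated. WT mice 1 to 5 had 264, 282, 422, 761 and 280 CPM of Id3 in DP3, lower than in CD4+CD8lo in WT replicates 1 and 2 and higher in the other 3 mice. The WT change was 0.04 ± 0.21 (adjusted p = 0.99), and -0.50 (adjusted p = 0.234) without the third experiment. In CD4-fated mice, Id3 was higher in CD4 SM (median 492 CPM, 345 to 824) than in CD4+CD8lo in 6 of 6 mice, by 0.55 ± 0.20, which was not called (adjusted p = 0.0912). AND mice held the highest SM values, 788 and 824 CPM, among CD4-fated mice. F5 mice held the highest among CD8-fated mice, 837 and 709 CPM in CD8 SM and 812 and 636 CPM in CD8 mature. None of the other Id3 steps was called in CD4-fated, CD8-fated or WT mice. From CD4 SM to CD4 mature in WT mice, the change was 0.45 ± 0.21 (adjusted p = 0.224), but it was called without the third experiment (0.52, adjusted p = 0.0158). From CD4+CD8lo to CD4 SM in WT mice, a decrease was called without cells of unnamed clusters (-0.57, adjusted p = 0.029).

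Tcf12, the gene of HEB, moved opposite to the Id genes at the start of selection. In CD4-fated mice it stood at 211 to 458 CPM (median 392) in DP1, 155 to 372 CPM (median 246) in DP2 and 75.7 to 177 CPM (median 98.7) in CD4+CD8lo. All 6 mice were lower at each of these steps. Tcf12 fell by 0.65 ± 0.13 into DP2 (adjusted p = 0.00351) and by 1.00 ± 0.14 into CD4+CD8lo (adjusted p = 2.81e-06). The earlier of these calls was lost without MHCI-/- replicate 1 (adjusted p = 0.067) or 2 (adjusted p = 0.0724), and with lane-by-lane thresholds (adjusted p = 0.0832).

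In CD8-fated mice Tcf12 fell from 243 to 359 CPM (median 306) in DP1 to 141 to 226 CPM (median 160) in DP2, with no overlap between gates. The decrease was 0.77 ± 0.13 (adjusted p = 6.29e-05), in 6 of 6 mice. CD4+CD8lo values were 111 and 103 CPM in MHCII-/- mice and 135 and 136 CPM in OT-I mice, again below every DP2 value of those mice. That change was -0.42 ± 0.15 and was not called (adjusted p = 0.137), but passed with lane-by-lane thresholds (-0.50, adjusted p = 0.00983), without the low-count filter (adjusted p = 0.0316), without cells of unnamed clusters (-0.55, adjusted p = 0.00876) and without the AND and F5 mice (-0.46, adjusted p = 0.0248).

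WT mice 1 to 5 had 429, 400, 374, 497 and 404 CPM of Tcf12 in DP1, 159, 224, 203, 481 and 410 CPM in DP2 and 83.9, 106, 81.7, 135 and 133 CPM in CD4+CD8lo. The sorted mice were lower by DP2, the unsorted mice by CD4+CD8lo, and DP2 and CD4+CD8lo did not overlap. Tcf12 fell by 0.54 ± 0.14 into DP2 (adjusted p = 0.0132) and by 1.33 ± 0.15 into CD4+CD8lo (adjusted p = 6.31e-09). The call into DP2 was lost without WT replicate 1 (0.158), 2 (0.131) or 3 (0.122), while without the third experiment the change was -0.99 (adjusted p = 5.11e-10). From CD4+CD8lo to CD4 SM, Tcf12 changed by -0.32 ± 0.15 (adjusted p = 0.171), and this was called without the third experiment (-0.38, adjusted p = 0.0151).

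In WT mice, 2 further Tcf12 calls rested on the unsorted mice. In DP3, the sorted mice had 99.9, 109 and 92.4 CPM and the unsorted mice 336 and 282 CPM. The increase from CD4+CD8lo to DP3 was 0.78 ± 0.16 (adjusted p = 0.00162), but 0.15 (adjusted p = 0.831) without the third experiment and 0.54 (adjusted p = 0.14) without WT replicate 4. From DP3 to CD8 SM, Tcf12 fell by 0.98 ± 0.18 (adjusted p = 3.7e-05), but the change was -0.28 (adjusted p = 0.421) without the third experiment. Rag1 moved with Tcf12 here, at 711 and 1391 CPM in the unsorted DP3 sums, and its part in these calls was not tested.

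Tcf3 changed less than the other 3 genes. Over the 114 sums it lay between 26.6 CPM (OT-II replicate 2, CD4 mature) and 197 CPM (WT replicate 1, DP1). In CD4-fated mice the median was 140 CPM in DP1, 113 in DP2, 91.9 in CD4+CD8lo, 76.6 in CD4 SM and 74.0 in CD4 mature. Tcf3 was lower in CD4+CD8lo than in DP2 in 6 of 6 CD4-fated mice and 5 of 5 WT mice, without passing the test in either. In CD8-fated mice the median went from 140 CPM in DP1 to 68.0 CPM in CD8 mature. The single call was in WT mice, where CD4+CD8lo had 118, 119, 106, 102 and 93.3 CPM and CD4 SM had 81.1, 93.3, 82.2, 64.8 and 55.0 CPM. Tcf3 fell by 0.36 ± 0.11 there (adjusted p = 0.0206), in 5 of 5 mice. The adjusted p was 0.0567 without WT replicate 1, 0.0942 without WT replicate 4, 0.0579 without WT replicate 5, 0.113 with antibody thresholds lowered by 0.25 and 0.127 without the third experiment. From DP3 to CD8 SM, Tcf3 was called as lower under single alternatives: in CD8-fated mice with lane-by-lane thresholds (adjusted p = 0.044) and in WT mice with lowered thresholds (0.0385) or without cells of unnamed clusters (0.0206). Counts from the 3′ end do not separate the splice forms of Tcf3 or of Tcf12.

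The UMIs of both Id genes were also set against those of both E protein genes in the same sum, as a description without a test. In WT mice the ratio was 0.679, 1.19, 0.794, 0.492 and 0.35 in DP1 and 3.14, 3.096, 3.16, 0.844 and 0.505 in DP2. In DP2 the sorted mice were above 3 and the unsorted mice below 1. In CD4-fated mice the median ratio went from 0.798 in DP1 to 2.13 in DP2 and 3.81 in CD4+CD8lo, higher in 6 of 6 mice at both steps. In CD8-fated mice it went from 1.11 to 2.85 between DP1 and DP2, and was then lower in CD4+CD8lo than in DP2 in 4 of 4 mice (1.44 to 1.96 against 1.71 to 3.12). By DP3 it was higher again in the same 4 mice, at 2 to 2.55. The ratio compares UMIs, not protein.

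CD5 protein on DP cells rises with TCR signal strength, and offers a view of these genes that the CD69 gates did not use. DP1 and DP2 cells of the 16 mice with at least 100 such cells were split into quartiles of CD5 within each mouse. Some mice were sorted for CD5+ cells, so a quartile covers different CD5 levels in different mice. Median CD5 (log2) was 9.90 to 10.1 in the lowest quartile of the sorted WT mice. It was 9.54 and 9.92 in the highest quartile of the unsorted WT mice. The median of Id3 went from 284 CPM in the lowest quartile to 535, 728 and 894 CPM in the highest, where 16 of 16 mice exceeded their lowest quartile. The median of Id2 went from 9.32 to 29.2, 33.5 and 56.3 CPM, with 15 mice higher and 0 lower in the top quartile. Below the top quartile Id2 was less regular: 12 mice were higher and 4 lower than their lowest quartile in the second quartile, and 13 were higher and 2 lower in the third. For Id3, 14 of 16 mice were higher in the second quartile and 15 in the third.

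Tcf12 ran the other way, with medians of 331, 330, 270 and 202 CPM and 14 of 16 mice lower in the top than in the bottom quartile. Tcf3 had medians of 127, 148, 135 and 126 CPM, with 7 mice higher and 9 lower in the top quartile. Rag1 went from 786 to 34.4 CPM with 15 of 16 mice lower. CD69 gating and CD5 quartiles share these cells, so the quartiles are no independent replicate of the DP1 to DP2 step, and they were not tested. The plot by CD5 quartile shows each mouse.

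**Figure D3:**
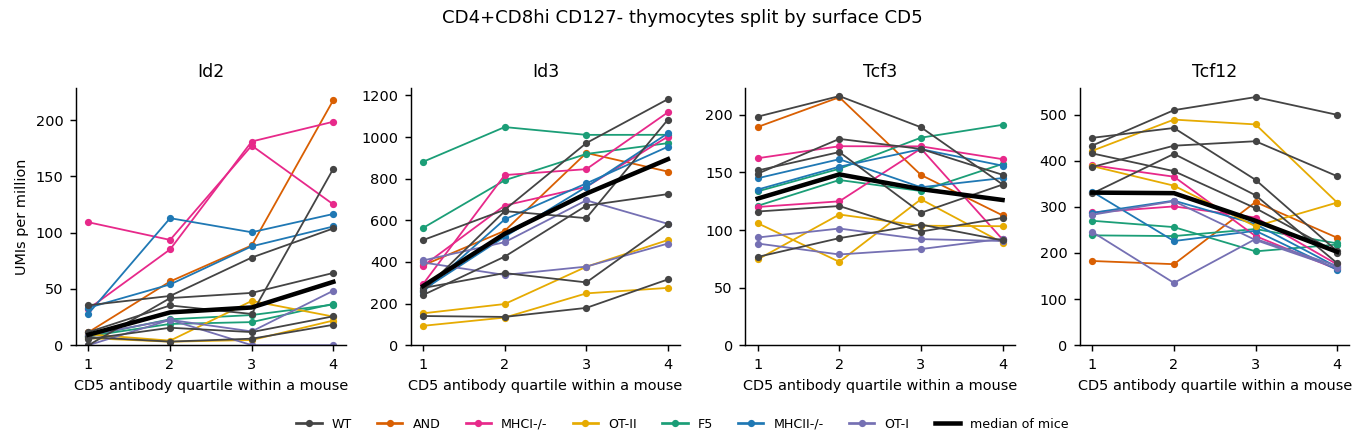
Level of each gene (CPM, vertical axis) in DP1 and DP2 cells split by CD5 antibody level into quartiles within each mouse (horizontal axis, 1 lowest and 4 highest), for 16 mice, with the median in black. The Id3 median climbs from 284 to 894 CPM and the Tcf12 median declines from 331 to 202 CPM.

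CD4-fated and CD8-fated mice were compared within gates, and genotypes of 1 kind formed a covariate: AND beside F5, which are TCR transgenic and Rag1 deficient, both MHC-deficient genotypes, and both OT genotypes. In DP1, DP2 and CD4+CD8lo, edgeR called 0 of 12 tests of the 4 genes, with 3 at an unadjusted p under 0.05 and 0 by DESeq2. Over all genes, 0.0116% were called in DP1, 0.182% in DP2 and 0.388% in CD4+CD8lo. Whether the kinds of genotype differed in that difference was tested in each gate, and edgeR called 0 of 20 such interactions of the 4 genes, with 4 at an unadjusted p under 0.05 and 1 by DESeq2. Over all genes, the interaction was called for 0.335% in DP1, 0.618% in DP2, 0.129% in CD4+CD8lo, 2.23% in SM and 0.218% in mature cells. In DP1, Id3 was at 496 and 370 CPM in AND, 471 and 539 CPM in MHCI-/- and 227 and 134 CPM in OT-II mice. It was at 997 and 764 CPM in F5, 403 and 461 CPM in MHCII-/- and 426 and 309 CPM in OT-I mice, so of the CD8-fated mice the F5 mice alone stood above every CD4-fated mouse. The lineage difference was -0.56 ± 0.24 (log2, CD4-fated minus CD8-fated, adjusted p = 1), and -0.31 without the third experiment. F5 DP1 cells also differed in Runx3, a CD8 lineage gene, at 90.1 and 134 CPM against 22.1 to 28.6 CPM in sorted WT mice. Over the restricted mice other than OT-II, Runx3 ranged from 15.8 to 142 CPM in DP1, so F5 mice did not hold its highest value. The part of Runx3 in the Id3 value was not tested.

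In DP2, Id2 differed by 0.56 ± 0.33 (CD4-fated minus CD8-fated, adjusted p = 1), and was called without the third experiment (0.91, adjusted p = 0.0457). Tcf12 differed by 0.42 ± 0.17 (CD4-fated minus CD8-fated) and was not called (adjusted p = 0.757). Values were 202 and 308 CPM in AND against 141 and 183 CPM in F5 mice, 372 and 291 CPM in OT-II against 226 and 158 CPM in OT-I mice, and 175 and 155 CPM in MHCI-/- against 162 and 152 CPM in MHCII-/- mice. The TCR transgenic pairs were apart and the MHC-deficient pairs were close. Rag1 moved with Tcf12 in the OT-II DP2 sums, at 467 and 728 CPM against 0 to 288 CPM in the other restricted mice, and its part in the difference was not tested.

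The CD4+CD8lo gate holds cells of both fates. Id3 was at 344 and 369 CPM in MHCI-/- mice against 144 and 198 CPM in MHCII-/- mice, and at 424 and 221 CPM in OT-II against 249 and 180 CPM in OT-I mice. AND mice had no F5 counterpart in this gate. With the family as a covariate the difference therefore rested on 4 CD4-fated and 4 CD8-fated mice, and it was 0.85 ± 0.24 (adjusted p = 0.201), with 1.15 in the MHC-deficient family and 0.55 in the OT family. With the replicate number as a block it was called (0.84, adjusted p = 0.0412), although the numbers did not pair the mice in every family. It was called without the third experiment (1.14, adjusted p = 7.08e-05), where it rested on 2 MHCI-/- and 2 MHCII-/- mice, those of the MHC-deficient family value. Leaving out cells of unnamed clusters turned the difference to -0.24, but it removed cells unevenly. In this gate it left 94.1% and 93.7% of cells in MHCI-/- mice and 14.5% and 15.2% in MHCII-/- mice. It left 38.2% and 96.5% in OT-II mice and 18.3% and 97.5% in OT-I mice. Id2 differed by 0.26 ± 0.27 (adjusted p = 0.941), but was called without the third experiment (0.96, adjusted p = 9.51e-06), again from the MHC-deficient mice alone. Within the MHC-deficient family the Id2 difference was 0.95, with 472 and 517 CPM against 292 and 257 CPM. Within the OT family it was -0.53, with 79.8 and 101 CPM against 133 and 117 CPM. The OT-II sums also stood apart in Rag1, at 147 and 111 CPM in this gate against 0.693 to 11.8 CPM in the other restricted mice, and the family interaction was called for Rag1 (adjusted p = 0.000732) and Dntt (adjusted p = 0.0178). The part of such cells in the Id2 and Id3 values was not tested. The families differed in direction without a called interaction (adjusted p = 0.142), and the family and the experiment cannot be told apart.

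At the SM stage 1 of the 4 genes, Id2, was called between the lineages, against 8.4% of 9374 genes. Id2 ranged from 46.6 to 161 CPM (median 101) in CD4 SM cells of CD4-fated mice and from 17.6 to 102 CPM (median 34.6) in CD8 SM cells of CD8-fated mice. Within each family, both CD4-fated mice were above both CD8-fated mice: AND mice had 65.4 and 161 CPM and F5 mice 36.8 and 17.6 CPM, MHCI-/- mice 142 and 136 CPM and MHCII-/- mice 91.4 and 102 CPM, and OT-II mice 48.7 and 46.6 CPM and OT-I mice 19.7 and 32.5 CPM. Id2 was higher in CD4 SM by 1.00 ± 0.28 (adjusted p = 0.0404). The size kept its direction in all 26 alternatives, at 0.55 to 1.21, while 14 of them ended the call. Leaving out MHCI-/- replicate 1 gave an adjusted p of 0.0582, MHCI-/- replicate 2 0.052, OT-II replicate 1 0.0564, OT-II replicate 2 0.0586, F5 replicate 1 0.073, F5 replicate 2 0.0766, MHCII-/- replicate 1 0.0663 and OT-I replicate 1 0.0732. The other alternatives that ended the call were lane-by-lane thresholds (0.071), all clusters gated (0.0637), unnamed clusters left out (0.55, adjusted p = 0.213), the third experiment left out (0.0691), the AND and F5 mice left out (0.0685) and no family covariate (0.329). The contrast has the same direction as that between CD4 SM and CD8 SM in WT mice, which are other animals.

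In mature cells 0 of 4 genes were called by edgeR, with 1 at an unadjusted p under 0.05 and 0 by DESeq2, against 8.28% of 8332 genes. Id2 differed by 0.11 ± 0.32 (adjusted p = 0.897), and its direction was not stable across families. CD4 mature cells had 32.9 and 23.6 CPM in AND, 59.7 and 61.0 CPM in MHCI-/- and 22.5 and 26.6 CPM in OT-II mice. CD8 mature cells had 14.2 and 4.24 CPM in F5, 91.8 and 98.2 CPM in MHCII-/- and 19.2 and 22.1 CPM in OT-I mice. MHC-deficient mice had more Id2 in CD8 mature cells, whereas AND exceeded F5, and the differences by family were -0.64, 1.98 and 0.18 in the MHC-deficient, Rag1-deficient TCR and OT families (interaction adjusted p = 0.115). The overall sign turned in 7 of the alternatives, and with cells of unnamed clusters left out the reversed difference was itself called (-0.65, adjusted p = 0.0423). Tcf12 was at 48.1 to 103 CPM (median 68.6) in CD4 mature and 69.4 to 168 CPM (median 106) in CD8 mature cells, a difference of -0.46 ± 0.16 (adjusted p = 0.089), called with the replicate number as a block (-0.44, adjusted p = 0.0422).

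**Figure D4:**
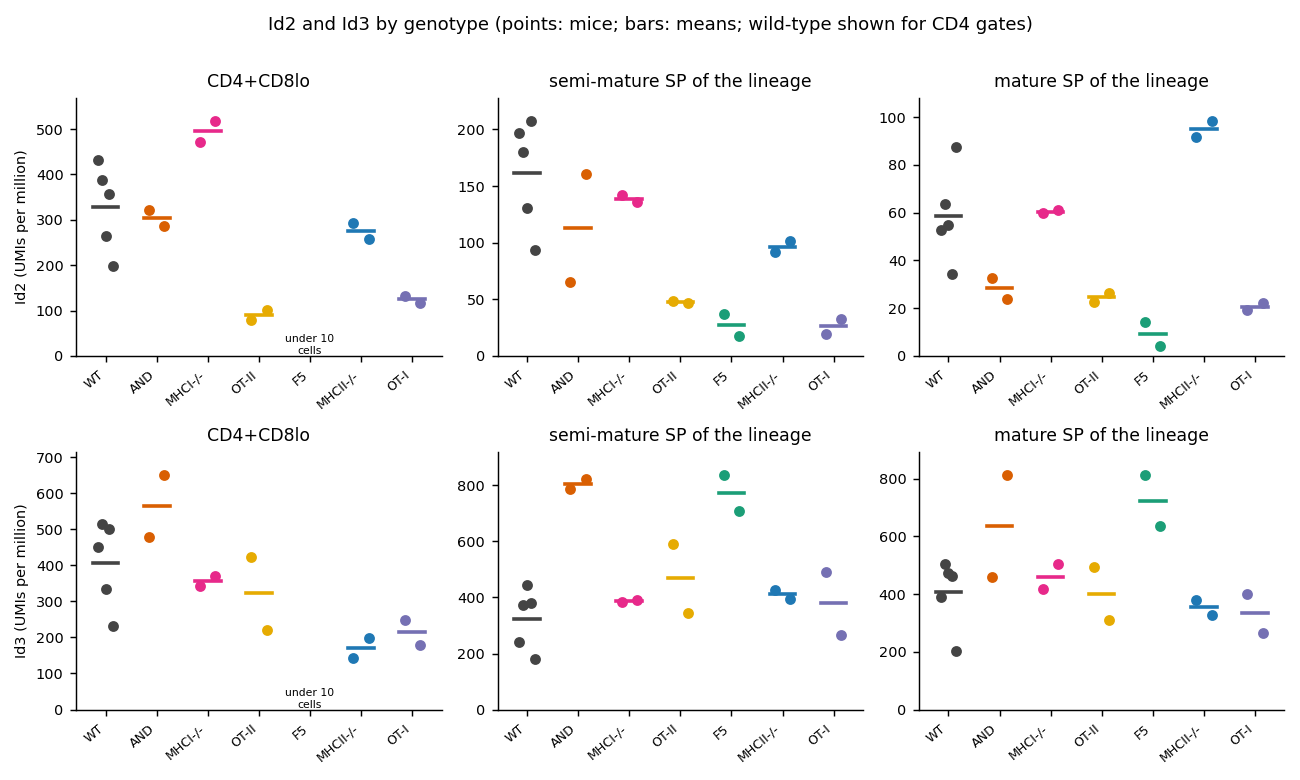
Id2 and Id3 levels (CPM, vertical axis) in the CD4+CD8lo gate and in the SM and mature SP gates of the lineage of each genotype, with 1 point per mouse and bars at the genotype mean. MHCI-/- mice have the highest Id2 in CD4+CD8lo (472 and 517 CPM), and F5 mice, with under 10 cells there, have none plotted.

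Cell types were described from RNA clusters made without these genes or the pathway lists. Of 29 clusters, 21 could be named from fixed markers as X-like classes, and 16667 of 69248 cells stayed unnamed. The markers included list genes, such as Rag1 for quiescent DP-like, Egr1 and Egr2 for signaled DP-like and S1pr1 and Klf2 for mature SP-like cells. The names are therefore not independent of the lists. Levels are means ± SD over WT mice at clustering resolution 1 and carry no test. Id2 was highest in NKT-like cells (534 ± 179 CPM, n = 5) and CD4 SP-like cells (432 ± 57.8 CPM, n = 4), whose ranges of 374 to 798 and 352 to 477 CPM overlapped. The CD4 SP gates of WT mice held less Id2, at 93.3 to 207 CPM in CD4 SM and 34.5 to 87.3 CPM in CD4 mature cells. The CD4+CD8lo gate, at 198 to 431 CPM, was nearer to the CD4 SP-like class. Myeloid-like cells followed at 164 ± 97.5 CPM (n = 4), up to 299 CPM, and CD8 SP-like cells at 82.2 ± 23.0 CPM (n = 4). The myeloid-like class pools a cluster with C1qb and Apoe among its leading genes and another with H2-Aa and Cd74. Over all mice these clusters had 116 and 384 CPM of Id2. Id2 was lowest in quiescent DP-like cells (9.38 ± 3.71 CPM, n = 5) and cycling-like cells (4.98 ± 1.06 CPM, n = 5). The order depended on the clustering. With coarser clusters (resolution 0.6) no class was CD4 SP-like. The cluster then named signaled DP-like shared 8 of its 10 leading genes with the CD4 SP-like cluster, which supplied 68.9% of its 4867 cells, and it had 396 ± 58.5 CPM of Id2 (n = 4), whereas signaled DP-like cells at resolution 1 had 40.3 ± 25.9 CPM (n = 5). NKT-like cells had 844 ± 315 CPM (n = 5).

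Id3 was highest in signaled DP-like cells (963 ± 311 CPM, n = 5), followed by NKT-like cells (574 ± 294 CPM, n = 5), whose range of 111 to 918 CPM overlapped with the 554 to 1310 CPM of signaled DP-like cells. The lowest signaled DP-like values were 554 CPM of Id3, 111 of Tcf3, 55.4 of Tcf12 and 0 of Id2. All are whole multiples of 55.4 CPM, as in a sum of few UMIs, and they enter the means and SD of this class in full. Its medians were 961 CPM of Id3, 56.0 of Id2 and 231 of Tcf12. CD4 SP-like (439 ± 61.9 CPM), mature SP-like (408 ± 119 CPM) and CD8 SP-like cells (398 ± 42.0 CPM) did not differ beyond their spread. The mature SP-like class pools 2 unlike clusters, with 558 and 240 CPM of Id3 over all mice. The latter cluster had 46.2% of its cells in 1 lane, and 3761 mature SP-like cells were unnamed with coarser clusters. With coarser clusters Id3 was highest in negative selection-like cells (740 ± 367 CPM, n = 5), 44.2% of which were signaled DP-like at resolution 1, and NKT-like cells had 221 ± 117 CPM (n = 5). Of the 993 NKT-like cells at resolution 1, 482 lay in this coarser negative selection-like class and 478 in the coarser NKT-like class. The coarser cluster made mostly of CD4 SP-like cells had 667 ± 118 CPM (n = 4). At resolution 1, Treg-like cells had 281 ± 113 CPM of Id3 and 25.9 ± 22.7 CPM of Id2 (n = 5). Quiescent DP-like cells had 220 ± 39.0 CPM of Id3, and DN-like cells, the CD4-CD8- precursors, 34.3 ± 16.5 CPM (n = 2).

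Tcf12 was highest in quiescent DP-like cells at 611 ± 110 CPM (n = 5), whose lowest mouse, at 430 CPM, lay above every mouse of every other named class. With coarser clusters the mean was 613 ± 102 CPM (n = 5), and the lowest mouse, at 450 CPM, was again above the highest value of the other named classes, 348 CPM. DN-like (280 ± 12.6 CPM, n = 2), cycling-like (245 ± 31.6 CPM) and signaled DP-like cells (203 ± 86.8 CPM) overlapped with each other, and SP-like, Treg-like and NKT-like cells lay at means of 75.2 to 84.0 CPM. With coarser clusters the mean of mature SP-like cells moved to 128 CPM. Tcf3 differed little among signaled DP-like (140 ± 24.8 CPM), quiescent DP-like (139 ± 35.2 CPM) and cycling-like cells (135 ± 30.2 CPM), and was lowest in Treg-like (57.2 ± 13.8 CPM) and myeloid-like cells (55.5 ± 33.8 CPM, n = 4). The plot of cell classes shows the mice behind each median.

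**Figure D5:**
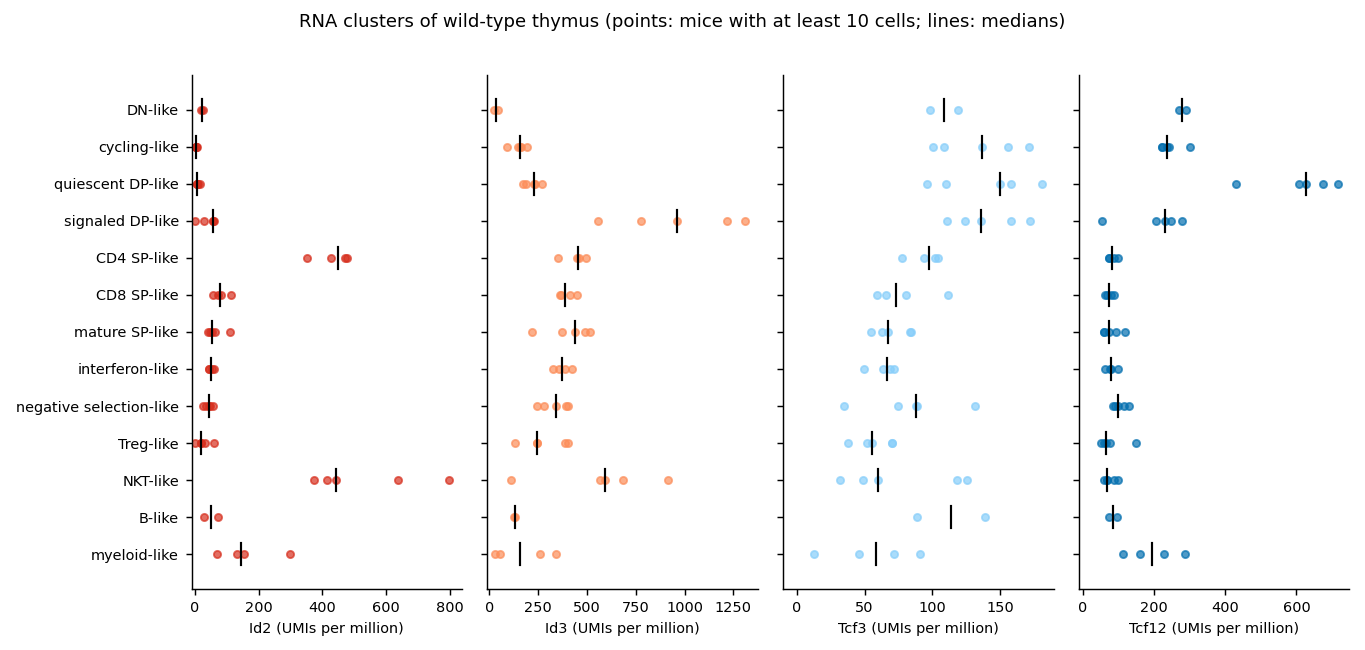
Levels of the 4 genes (CPM) in RNA-defined cell classes of wild-type mice, with 1 point per mouse and lines at the median. At clustering resolution 1, Id2 has its highest medians in NKT-like and CD4 SP-like cells, Id3 in signaled DP-like cells and Tcf12 in quiescent DP-like cells.

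Known targets of E proteins moved at the same steps, described here by counts without a set test. The list of genes that E proteins activate had 9 members, all tested in the stage fits: Rag1 and Rag2 (recombinase), Dntt (terminal transferase), Ptcra (pre-TCR chain), Notch1, Notch3, Hes1, Socs3 and Cd4. From DP1 to DP2, 5 fell in CD4-fated mice, 8 in CD8-fated mice and 3 in WT mice, where 6.12%, 13.6% and 6.26% of all genes were called in either direction. Without the third experiment 4 of 7, 6 of 8 and 5 of 7 tested fell (550 of 8927, 1054 of 9996 and 1245 of 8837 genes called). The list medians were -1.27, -2.12 and -0.56 on the log2 scale, against -0.0045, 0.0049 and -0.0080 over all genes tested. Rag1 changed by -1.88, -2.89 and -2.02 in these sets, and AND and F5 mice carry a disrupted Rag1. From DP2 to CD4+CD8lo, 3, 2 and 6 members fell, against 16.1%, 3.61% and 25.8% of all genes called, and without the third experiment 2 of 7, 1 of 8 and 3 of 7 (10.8%, 1.23% and 12.4%). Rag2 fell by 1.91 in CD4-fated, 4.90 in CD8-fated and 3.87 in WT mice (log2).

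From CD4+CD8lo to CD4 SM in CD4-fated mice, 5 of these genes fell and Socs3 rose (8% of all genes were called), and without the third experiment, with 7 of them tested, the decreases were no longer called. At this step in WT mice, edgeR called 0 of 9, with 2 at an unadjusted p under 0.05 and 0 by DESeq2, although 16.5% of all genes were called. In WT mice, 4 rose from CD4+CD8lo to DP3 (4.73% of all genes were called), again the step at which Tcf12 rose, and without the third experiment 1 of 7 tested did (1.87%). In CD8-fated mice 0 of 9 rose and Cd4 fell at this step (0.646% of all genes were called), and Tcf12 changed by -0.06 without a call. From DP3 to CD8 SM, 5 of 9 fell in WT mice (27% of all genes were called), or 2 of 7 without the third experiment (6.83%), and 2 of 9 in CD8-fated mice (13.8%). Cd4 was among them in both, and CD4 antibody separates these gates.

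Of 6 genes that E proteins hold down before selection, 5 could be tested in the stage fits: Il7r, Ccr7, S1pr1, Klf2 and Foxo1, genes of survival and exit. All 5 rose from DP2 to CD4+CD8lo in CD4-fated and in WT mice, and 2 (Il7r and Ccr7) in CD8-fated mice, 1 of them without the third experiment. Of all genes, 16.1%, 25.8% and 3.61% were called at this step in CD4-fated, WT and CD8-fated mice. From DP1 to DP2, 2 rose in CD4-fated mice (Il7r and Ccr7) and 3 in CD8-fated mice (also Foxo1), and edgeR called 0 of 5 in WT mice, with 2 at an unadjusted p under 0.05, 1 called by DESeq2 and 2 without the third experiment. Into DP3, S1pr1 and Il7r fell from CD4+CD8lo in WT mice (list median -0.81, 4.73% of all genes called) and Il7r in CD8-fated mice (0.646%), with 1 and 0 of 5 called by edgeR without the third experiment. Into the SM gates, 4 of 5 rose from CD4+CD8lo to CD4 SM and from DP3 to CD8 SM in each set tested (Ccr7, S1pr1, Klf2 and Foxo1). Of all genes, 8% and 16.5% were called into CD4 SM in CD4-fated and WT mice, and 13.8% and 27% into CD8 SM in CD8-fated and WT mice. Without the third experiment, 2 of the 4 rose from DP3 to CD8 SM in CD8-fated and in WT mice (6.65% and 6.83% of all genes called). The medians from DP2 to CD4+CD8lo were 3.20, 2.73 and 0.83, against 0.0022, -0.011 and 0.010 over all genes. Il7r encodes CD127, for which DP2 was gated low and CD4+CD8lo was not, so the gates and this change are not independent, and their part in it was not tested. S1pr1 rose by 4.41 in CD4-fated mice at this step. The TCR-induced factors upstream of Id3 had 4 of 5 members tested. From DP1 to DP2, Egr1, Egr2 and Nr4a1 rose in all 3 sets of mice and Nfatc1 in CD8-fated and WT mice, with Egr2 at 1.70, 1.27 and 2.04 in CD4-fated, CD8-fated and WT mice. Of all genes, 6.12%, 13.6% and 6.26% were called at that step. Later calls of these factors were all decreases: Nfatc1 fell from DP2 to CD4+CD8lo in all 3 sets and Egr2 in CD8-fated mice, Egr1 fell from CD4+CD8lo to CD4 SM in CD4-fated and WT mice with Nr4a1 in the former and Egr2 in the latter, Nr4a1 fell from CD4 SM to CD4 mature in WT mice, and Egr1 fell from DP3 to CD8 SM in CD8-fated and WT mice, with Egr2 in WT mice. Without the third experiment, 1 of the 4 rose and 2 fell at this last step in WT mice, when 6.83% of all genes were called.

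Among 11 other helix-loop-helix genes and cofactors, 4 could be tested. Cbfa2t3, which encodes a corepressor that binds E proteins, fell from DP1 to DP2 in CD4-fated (by 1.44) and CD8-fated mice (by 3.01) and from DP2 to CD4+CD8lo in all 3 sets (by 1.67, 2.61 and 4.23). The share of all genes called was 6.12% and 13.6% at the former step in CD4-fated and CD8-fated mice. At the latter step it was 16.1%, 3.61% and 25.8% in CD4-fated, CD8-fated and WT mice. Without the third experiment the latter decrease was not called in CD4-fated or CD8-fated mice. Cbfa2t3 also fell from CD4+CD8lo to CD4 SM in CD4-fated mice (by 2.01), and in WT mice it rose from CD4+CD8lo to DP3 (adjusted p = 3.11e-05) and fell by 3.86 from DP3 to CD8 SM, and none of these 3 changes was called without the third experiment. The shares of all genes called were 8%, 4.73% and 27% in the same order. Ldb1, a cofactor of LIM proteins, rose from DP2 to CD4+CD8lo in CD4-fated and WT mice, and fell from DP3 to CD8 SM in CD8-fated (by 0.45) and WT mice (by 0.54). From DP3 to CD8 SM, 13.8% and 27% of all genes were called in CD8-fated and WT mice. Of these Ldb1 calls, the one in CD4-fated mice alone held without the third experiment. In WT mice Ldb1 was higher in CD4 than in CD8 cells, by 0.70 in SM and 0.52 in mature cells, and both differences were called with and without that experiment. Between these gates, 13.6% and 8.72% of all genes were called with it.

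Tcf4, itself an E protein gene, fell from DP2 to CD4+CD8lo by 0.73 in CD4-fated mice (adjusted p = 0.00679) and 0.65 in WT mice (adjusted p = 0.00307). It fell from CD4+CD8lo to CD4 SM by 0.68 in CD4-fated (adjusted p = 0.0207) and 0.88 in WT mice (adjusted p = 0.000481). The shares of all genes called in CD4-fated and WT mice were 16.1% and 25.8% at the former step and 8% and 16.5% at the latter. In WT mice Tcf4 also fell from CD4 SM to CD4 mature (by 1.02, adjusted p = 0.0455) and from DP3 to CD8 SM (by 1.56, adjusted p = 2.9e-06). There, 7.41% and 27% of all genes were called. Without the third experiment, the WT decreases into CD4 SM (1.07, adjusted p = 0.000105) and CD4 mature cells (0.99, adjusted p = 0.0446) were still called and the other Tcf4 decreases were not. Cbfa2t2, a relative of Cbfa2t3, fell in WT mice from DP2 to CD4+CD8lo (by 1.08, adjusted p = 0.00104) and rose from there to DP3 (by 1.00, adjusted p = 0.0326), and was higher in CD4 mature than in CD8 mature cells (by 1.42, adjusted p = 0.0404). In these comparisons 25.8%, 4.73% and 8.72% of all genes were called. None of these Cbfa2t2 changes was called without the third experiment.

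Across the 114 sums and 7671 genes with a mean of at least 10 CPM, the genes most like each of the 4 were ranked by Pearson's r of log2(CPM + 1). The points share mice and depth, so r is a description. Closest to Id2 were Bcl2 (0.82), Pacsin1 (0.80) and Pglyrp2 (0.75), and closest to Id3 were Ptprcap (0.74), Dad1 (0.72) and Sept7 (0.71). Closest to Tcf3 were Gnb1 (0.81), Maz (0.81) and Smarcd2 (0.80), and closest to Tcf12 were Trp53inp1 (0.92), Cux1 (0.92) and Arpp21 (0.92). Among themselves, Id2 and Tcf12 had r of -0.52, Tcf3 and Tcf12 0.52, Id3 and Tcf3 0.34 and Id2 and Id3 0.03.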

How the data were processed

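RNA and antibody UMIs were measured in 19 lanes from 17 mice with 3′ droplet libraries. The authors produced the deposited counts with Cell Ranger 3.1.0 on the mm10 (GRCm38) reference, per the submitters' processing notes and the study's methods. They are whole-number UMI counts for each gene or antibody and barcode, not normalized. The genes and the pathway lists were chosen with earlier results of these data known.

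The study's filters were applied to 85389 barcodes: at most 15% mitochondrial UMIs, at least 200 genes, 1000 to 10000 antibody UMIs and at least 70 of 111 antibodies. This left 72054 cells, of which 2806 (3.89%) were removed as doublets by scores against simulated doublets at 0.8% per 1000 barcodes. Kept cells had a median of 1519 to 7259 UMIs by lane. Antibody counts were scaled to 10000 per cell, log2(value + 1) transformed and split by Otsu thresholds in each of 3 experiments. Cells of clusters named as other cell types were left out of the gates. Clusters (leidenalg 0.10.2, resolution 1, 2000 genes, 30 components, 20 neighbours) served for description and for leaving out these cells.

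UMIs were summed for each mouse and gate with at least 10 cells. Sums were tested with edgeR 4.0.16 (R 4.3.3): TMM, filterByExpr, quasi-likelihood test, Benjamini-Hochberg adjustment over all genes in each fit. Stage steps had the mouse as a block, lineage contrasts the genotype family as a covariate, and interactions compared families. The named genes were the 4 genes in every comparison, list members that passed the test (at most 4 per list and comparison, by size of change) and the 3 most similar genes. Floors cover counting error only. The ± of a log2 fold change is an SE derived as the absolute change divided by the square root of the F of its test. The ± of a level is the SD over mice. On simulated data with 200 changed genes, recovery of log2 1 and log2 2 changes was 78% and 93% in the CD4-fated DP1 to DP2 fit (9055 genes), 76% and 95% in CD8-fated DP3 to CD8 SM (9755 genes, 7.07% of calls false), 81% and 97% in wild-type DP2 to CD4+CD8lo (8846 genes), 72% and 94% in the DP2 lineage contrast (7518 genes), and 61% and 95% between CD4 mature and CD8 mature (8105 genes).

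Alternatives were DESeq2 1.42.0, DESeq2 size factors, no low-count filter, 30 cells per sum, thresholds shifted by 0.25 or set by lane, all cells gated, doublets kept, no family covariate, a replicate block and each mouse left out. Further alternatives, 3 in number, were added after the data had been seen: unnamed clusters, the third experiment, or the AND and F5 mice left out. Replicate numbers were checked as pairs and did not pair the mice in every family (see the closing section). RefSeq sequences of GRCm38.p6 were matched by symbol for all 4 genes. Protein sequences were not used here. An item is not reported here and was left out of the list counts and of the ranking of similar genes.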

Additional observations from a re-analysis of the deposited data

Results flagged for a closer look

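In the WT CD8 SM gate, Id2 of replicate 5 stood at 81.5 CPM and lay apart from the other 4 mice, at 44.5 to 55.0 CPM. Tcf3 in the CD4 SM gate of CD4-fated mice was 100.3 CPM in MHCI-/- replicate 2, above the 70.5 to 81.0 CPM of the other 5. Tcf3 in the CD8 SM gate of CD8-fated mice was 178 CPM in F5 replicate 1, above the 59.7 to 95.2 CPM of the other 5. These are 3 of 76 groups in which a mouse lay apart by Dixon's criterion, and chance gives about 1 in 20. Between families of genotypes, edgeR called 0 of 20 interactions, with 4 at an unadjusted p under 0.05 and 1 by DESeq2. No step was higher in every mouse of one set and lower in every mouse of another.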

How the results depend on the processing

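The Id2 difference between CD4 mature and CD8 mature cells turned from 0.11 to -0.46 without the AND and F5 mice, -0.65 without cells of unnamed clusters (called, adjusted p = 0.0423), -0.11 without the family covariate, -0.059 with the replicate block and -0.0057 without the third experiment, and lay between -0.21 and 0.38 with 1 mouse left out. The Id3 difference in CD4+CD8lo turned to -0.24 without cells of unnamed clusters. Calls among the 4 genes in CD4-fated steps numbered 2 in place of 7 with thresholds per lane. In CD8-fated steps there were 3 in place of 7 without the third experiment and 4 to 8 with a mouse left out. Lineage contrasts within gates gave 0 calls, 1 without the low-count filter, 1 with the replicate block and 3 without the third experiment. Between SP gates there was 1 call, 0 with thresholds per lane, all cells gated, no family covariate, the third experiment left out or the AND and F5 mice left out, 0 to 1 with a mouse left out and 2 with the replicate block. Interactions gave 0 calls, 1 by DESeq2, 1 with thresholds per lane, 2 without the filter and 0 to 1 with a mouse left out. The causes were not tested. Over 92 tests of the 4 genes, 636 values with a mouse left out held 33 lost calls, 4 added calls and 19 turned signs, and 1107 values under other alternatives held 30, 35 and 36. None of these sign turns was in a called result, and 1 gave a call. Of 76 levels, 10 moved beyond 1 SD with means over cells or coarser clusters.

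Replicate numbers shared between CD4-fated and CD8-fated mice were not treated as pairs, since same-numbered mice did not deviate together in every family: correlations were 0.54 to 0.85 in OT, -0.33 to 0.03 in MHC-deficient and -0.21 to 0.39 in Rag1-deficient TCR mice. With the number as a replicate block, Id3 in CD4+CD8lo was 0.84 (adjusted p = 0.0412) and Tcf12 in mature cells -0.44 (adjusted p = 0.0422), both then called. Depth limits Id2 in DP1, where sums held few Id2 UMIs, and sums of under 100 cells in AND and OT-I mice.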

Other observations

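The DP3 gate belongs to the CD8 path, and CD4-fated mice also held cells there that entered no comparison. Id2 in these cells stood at 362 and 462 CPM in MHCI-/- mice, 170 and 103 CPM in AND mice and 41.0 and 37.9 CPM in OT-II mice, from 22 to 168 cells. Id3 stood at 607 and 652 CPM in MHCI-/- mice, 690 and 682 CPM in AND mice and 549 and 123 CPM in OT-II mice. Tcf12 was at 292 and 199 CPM in OT-II mice, in which Rag1 read 173 and 748 CPM, and at 117 to 193 CPM in the other CD4-fated mice.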
